A study of Mus musculus with 6 samples.

Results

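The cytosolic danger-sensing machinery of macrophages was examined through 10 mouse genes, the sensors Nlrp3, Nlrc4, Naip5, Nlrp1b and Aim2, the kinase Nek7, the adaptor Pycard, the caspases Casp1 and Casp4, and the pore former Gsdmd. They were chosen by name from 55536 annotated genes and comprise 39 annotated transcripts. RNA had been profiled in RAW264.7 cells, a transformed mouse macrophage-like line, in 3 control libraries from cells given phosphate-buffered saline (PBS) and 3 libraries from cells given titanium (Ti) particles. The labels give C57BL/6 as the strain background of both groups, although the line is generally described as derived from a BALB/c tumour. The sources used here state neither the dose of particles nor the length of exposure. The labels name no separate cultures, so p-values reflect only how these samples vary, and that variation may be technical. In bulk RNA, fewer cells of a type and less RNA per cell cannot be told apart.

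Inflammasomes are cytosolic complexes in which a sensor, after meeting a microbial or damage signal, recruits the adaptor ASC (encoded by Pycard) and activates caspase-1. Caspase-1 matures interleukin-1β and interleukin-18 and cleaves gasdermin D, whose released fragment forms pores in the plasma membrane. In macrophages that take up particulate matter, lysosomal damage and potassium efflux are well-known triggers of NLRP3, and Nlrp3 transcription is known to be induced by NF-κB. RAW264.7 cells are widely described as lacking ASC.

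The values are estimated counts per transcript, rescaled by exon length over genomic span, and given as CPM, that is, scaled to a common library total, over TMM-scaled totals unless another scale is named. The rescaled annotated transcripts summed to between 41164138 and 60242851 per library in the control group and between 37685950 and 48543341 in the Ti group. A rescaled count of 3, taken as the detection floor for counting error only, corresponded to between 0.0498 and 0.0796 CPM over unscaled totals. All 10 macrophage markers examined were detected in the libraries, with summed levels of 5966 to 7273 CPM in controls and 6903 to 8714 CPM with Ti. On the same unscaled totals, none of 5 T cell, 5 fibroblast or 4 epithelial markers reached the floor, 1 of 6 neutrophil markers did, and Ly6g and Epcam were at 0 throughout. Of 5 osteoclast markers 4 were detected, with sums of 6.17 to 11.9 CPM in controls and 14.1 to 21.6 CPM with Ti, and of 4 dendritic cell markers 3 were, with sums of 0.210 to 1.49 and 1.46 to 2.53 CPM. The part of these markers in the results below was not tested.

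Of the 10 genes, 7 had enough counts to be tested and none passed the adjusted threshold, against 0.026% of all 15376 genes tested (4 genes, and 0 with the replicate number as a block; edgeR quasi-likelihood test, Benjamini-Hochberg adjustment over all genes tested). In this unpaired edgeR test none of the 7 had an unadjusted p under 0.05, which 6.76% of all genes had, and none was called by DESeq2, which called 1.9%. With the replicate number as a block, Casp4 had an unadjusted p of 0.0348 (edgeR). The share of all genes under 0.05 in the block fit was not computed. Estimates of the unpaired fit were positive for 5 and negative for 2, with a median log2 fold change of 0.06, against 0.0053 over all genes tested. The 3 Ti libraries lay wholly apart from the 3 controls for 1 of the 7, or 14.3%, namely Nek7, which was lower. Over all genes tested 13.3% lay apart, 6.63% higher and 6.71% lower, so the share among these genes was near the background.

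**Figure D1:**
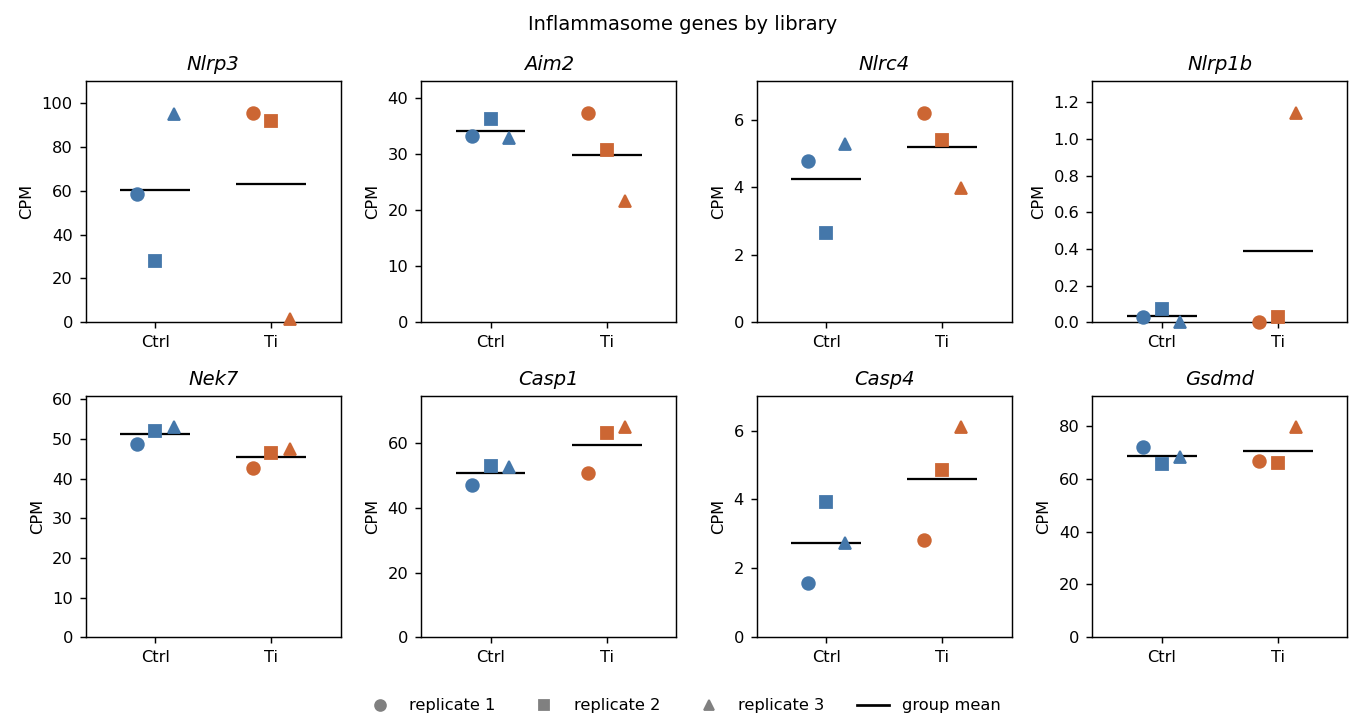
Level of the 8 inflammasome genes with any count (CPM, linear axis from 0, a separate scale per panel) in the 3 control (Ctrl) and 3 Ti libraries; points are single libraries with a shape for each replicate number, and lines are group means. Nlrp3 ran from 1.52 to 95.6 CPM with Ti, and the Nek7 groups did not overlap.

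Nlrp3 (ENSMUSG00000032691, GRCm38 chr11:59541568-59566956, plus strand) encodes the sensor that responds to ion efflux and lysosomal damage. It measured 58.2, 28.1 and 94.7 CPM in control replicates 1, 2 and 3, and 95.6, 91.9 and 1.52 CPM in Ti replicates 1, 2 and 3. Ti replicate 3 was the lowest library and Ti replicates 1 and 2 were close to control replicate 3, so the groups overlapped and the highest library exceeded the lowest by 63.0-fold. Group means were 60.4 ± 33.4 CPM (SD, n = 3) in controls and 63.0 ± 53.3 CPM (SD, n = 3) with Ti. The log2 fold change was 0.06 ± 1.21 (SE, adjusted p = 0.999, edgeR quasi-likelihood test), and an interval of 2 SE on either side, from -2.36 to 2.48, leaves several-fold changes in both directions undecided. Without Ti replicate 3 the estimate was 0.64 (unadjusted p = 0.248, edgeR), and without Ti replicate 1, Ti replicate 2 or control replicate 2 it was -0.37, -0.32 or -0.28. The direction of the Nlrp3 estimate therefore depended on which library was included.

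The Nlrp3 value was set by a single transcript. Nlrp3-201 held 3673, 1027 and 3906 rescaled estimated counts in control replicates 1, 2 and 3, and 4405, 3390 and 0 in Ti replicates 1, 2 and 3. In the 5 libraries where it was counted it made up 91.2% to 98.9% of the gene. As deposited, before rescaling, its values in the same order were 23709, 6631, 25215, 28437, 21883 and 0, so the 0 was already in the deposited file. Nlrp3-202, which has the same coding exons and starts 1118 bases downstream, held 49.0, 92.8 and 40.9 rescaled counts in controls and 43.9, 37.1 and 65.8 with Ti. It was counted in every library, highest in control replicate 2, and in Ti replicate 3 it made up 90.0% of the gene. Neither transcript passed the threshold (log2 fold changes of 0.08 ± 1.89 and -0.32 ± 0.50, SE, both on 6 libraries). Assembled transcripts, which took 36.9% to 51.2% of the deposited totals, carry no gene or position, and whether any of them held the Nlrp3 signal of Ti replicate 3 was not tested.

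Such near-absence in a single library was uncommon but not unique to Nlrp3-201. Among 7511 annotated transcripts with at least 500 rescaled counts in at least 5 libraries, 93 (1.24%), from 88 genes, were under 3 in the remaining one. The near-absent library was control replicate 1, 2 or 3 for 6, 18 and 20 of them, and Ti replicate 1, 2 or 3 for 9, 30 and 10. At the gene level, 49 of 8196 genes with a mean of at least 10 CPM (0.598%) had a lowest library over 10-fold below the next. Nlrp3 was one of 6 of these whose lowest library was Ti replicate 3, at 18.5-fold below the next. These thresholds were set after the Nlrp3 values were seen.

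**Figure D2:**
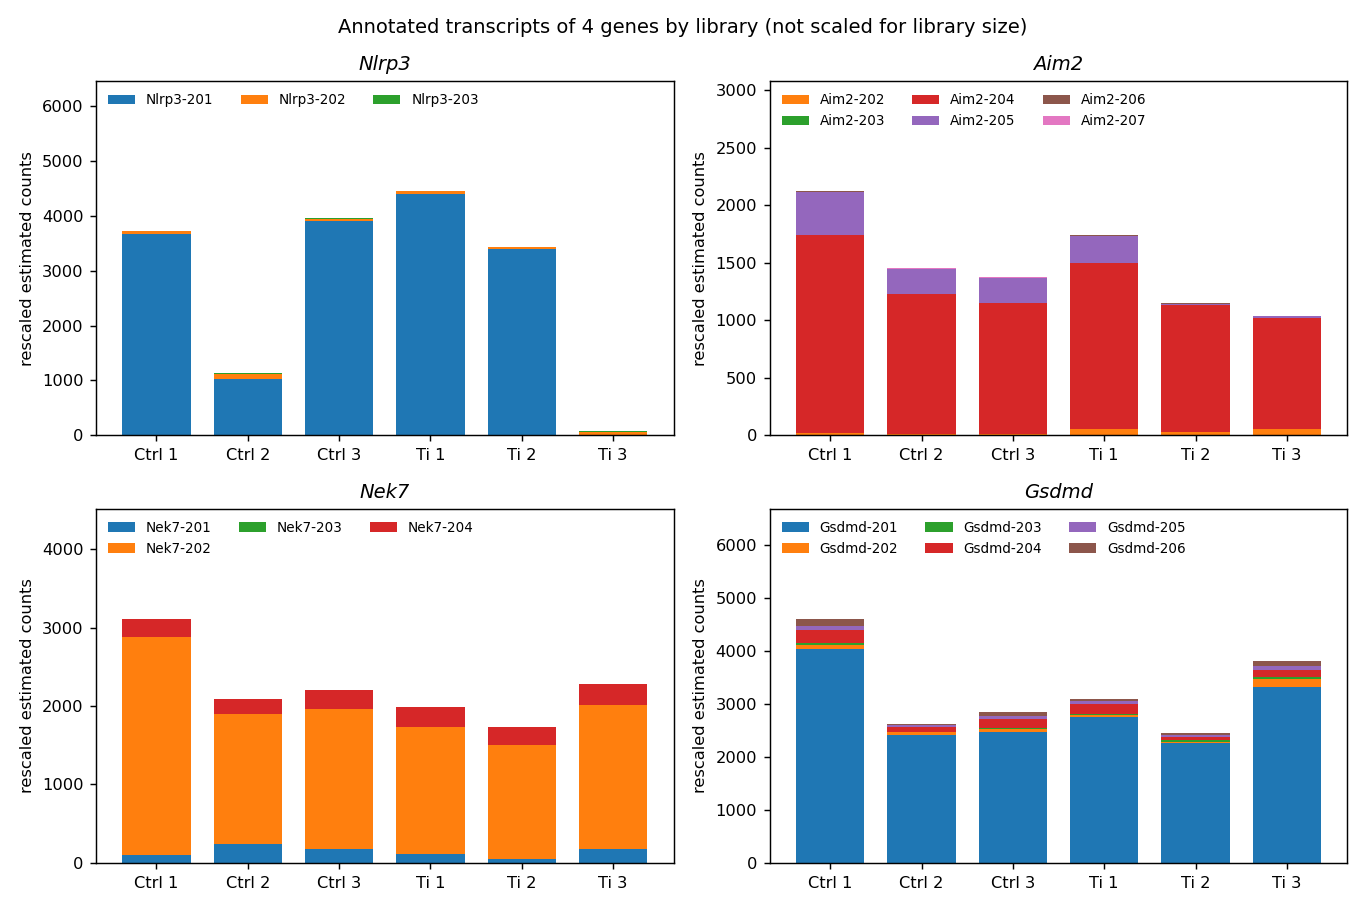
Rescaled estimated counts (linear axis from 0, not scaled for library size) of the annotated transcripts of Nlrp3, Aim2, Nek7 and Gsdmd, stacked for each of the 6 libraries, with a colour for each transcript. The Nlrp3-201 block, 1027 to 4405 counts in the other 5 libraries, is missing in Ti replicate 3, and the Aim2-205 block shrinks to 10.9 and 11.8 counts in Ti replicates 2 and 3.

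The promoter windows of both Nlrp3 transcripts are shown because the gene's variation followed the counts assigned to Nlrp3-201, which has the upstream start. How the counting split reads between these transcripts, which have the same coding exons, is not stated. The window of Casp4-201 is shown because caspase-11 is a known inflammatory response gene with the largest fold change estimate among the 7 genes tested. Each window runs from 250 bases before to 50 bases after the RefSeq start on GRCm38.p6, 5′ to 3′ on the plus strand. Matches to the loose NF-κB pattern (GGG, any 5 bases, CC) on either strand are in capitals (overlapping matches run together). Coordinates are chr11:59541319-59541618 for Nlrp3-201, chr11:59542436-59542735 for Nlrp3-202 and chr9:5308599-5308898 for Casp4-201.
Nlrp3-201: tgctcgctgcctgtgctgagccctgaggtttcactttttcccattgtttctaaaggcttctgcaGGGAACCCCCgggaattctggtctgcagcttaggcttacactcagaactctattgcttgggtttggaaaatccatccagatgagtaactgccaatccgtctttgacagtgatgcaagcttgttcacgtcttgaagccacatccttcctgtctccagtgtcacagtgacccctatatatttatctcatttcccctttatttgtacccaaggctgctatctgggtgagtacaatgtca
Nlrp3-202: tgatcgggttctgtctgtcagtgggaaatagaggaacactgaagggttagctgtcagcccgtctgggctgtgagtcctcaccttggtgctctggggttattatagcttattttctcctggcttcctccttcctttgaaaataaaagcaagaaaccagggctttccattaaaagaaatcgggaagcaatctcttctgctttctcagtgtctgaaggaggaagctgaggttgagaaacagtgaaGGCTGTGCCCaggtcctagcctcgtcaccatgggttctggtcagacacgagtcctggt
Casp4-201: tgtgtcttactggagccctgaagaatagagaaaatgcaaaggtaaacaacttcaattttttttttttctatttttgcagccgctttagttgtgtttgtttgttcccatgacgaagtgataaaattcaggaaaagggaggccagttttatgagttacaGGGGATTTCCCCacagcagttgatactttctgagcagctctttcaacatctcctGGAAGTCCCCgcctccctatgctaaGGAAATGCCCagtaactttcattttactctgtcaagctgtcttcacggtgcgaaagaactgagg
The Nlrp3-201 window held a match at position -186 from the start, the Nlrp3-202 window held one at -8, and the Casp4 window held overlapping matches from -93 and single ones at -39 and -14. This pattern is common: it occurred in 50.8% of all 32851 RefSeq promoter windows of that length and in 7 of the 12 windows that RefSeq gave for 9 of the 10 genes. The 7 include the Casp4 window shown and a largely overlapping Casp4 window, chr9:5308610-5308909, which holds the same matches. The interferon response pattern (GAAA, any 2 bases, GAAA, in 3.44% of all windows) and the AP-1 pattern TGANTCA (7.81%) matched none of the 12, TATAAA (13.6%) matched 1, and GAGGAA, a core bound by the macrophage factor PU.1 (28.3%), matched 5. No promoter was listed for Gsdmd. A match is a run of letters and not a bound site.

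The 5 genes whose profile over the 6 libraries was most like that of Nlrp3, among 9728 with a mean of at least 5 CPM, were Magi1, Mex3a, Gm42559, Eif2s3x and Ccdc71. Their Pearson correlations on log2(CPM + 0.5) were 0.985, 0.982, 0.981, 0.978 and 0.976, a description over 6 libraries that share depth and processing. All 5 had their lowest value in Ti replicate 3, which the choice by likeness to Nlrp3 made likely. Magi1 was there at 1.68 CPM against 5.71 to 16.1 CPM in the other libraries. Mex3a was there at 13.2 against 15.1 to 16.3 CPM.

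Aim2 (ENSMUSG00000037860, chr1:173350879-173466040, plus strand) encodes a sensor of cytosolic double-stranded DNA. It measured 33.2, 36.2 and 32.9 CPM in control replicates 1, 2 and 3, and 37.4, 30.8 and 21.6 CPM in Ti replicates 1, 2 and 3. Ti replicate 1 was the highest library and Ti replicate 3 the lowest, so the groups overlapped. Means were 34.1 ± 1.83 CPM in controls and 29.9 ± 7.95 CPM with Ti (SD, n = 3 each), a log2 fold change of -0.19 ± 0.21 (SE, adjusted p = 0.949, edgeR quasi-likelihood test). Without Ti replicate 3 it was 0.0015.

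The Aim2 transcripts did not move alike. Aim2-204, the main form at 80.7% to 96.4% of the gene, measured 27.5, 31.5 and 26.5 CPM in controls and 31.0, 30.0 and 19.8 CPM with Ti (log2 fold change -0.08 ± 0.23, SE). Aim2-202 has the same coding exons and starts 104475 bases upstream of Aim2-204. It measured 0.370, 0.258 and 0.280 CPM in control replicates 1, 2 and 3, and 1.23, 0.677 and 1.12 CPM in Ti replicates 1, 2 and 3. Each Ti library was above each control, from means of 0.303 ± 0.0591 to 1.01 ± 0.292 CPM (SD, n = 3 each). The log2 fold change was 1.72 ± 0.37 (SE), with an unadjusted p of 0.00371 and an adjusted p of 0.603 by edgeR's quasi-likelihood test. DESeq2 gave 1.73 with an adjusted p of 0.0441, so the call depended on the tool.

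Aim2-205, annotated with 284 coding bases against 1062 in Aim2-204 and with coding exons that are not the same, starts 34756 bases upstream of Aim2-204. It measured 6.09, 5.68 and 5.13 CPM in controls and 5.16, 0.298 and 0.245 CPM in Ti replicates 1, 2 and 3. Ti replicate 1 lay within the control range and the other Ti libraries lay far below it, so that the form made up 13.8% of the gene in Ti replicate 1 and 0.953% and 1.14% in replicates 2 and 3. Its log2 fold change of -1.56 ± 1.20 (SE, unadjusted p = 0.243, edgeR) was within this spread, and it ranged from -4.37 to -1.04 when single libraries were left out, the lowest without Ti replicate 1.

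Nlrc4 (ENSMUSG00000039193, chr17:74425438-74459142, minus strand) encodes the adaptor-like partner that assembles with NAIP proteins after they bind bacterial flagellin or secretion-system parts. It measured 4.80, 2.64 and 5.30 CPM in controls and 6.22, 5.41 and 3.97 CPM with Ti. The groups overlapped, and the log2 fold change was 0.29 ± 0.33 (SE, adjusted p = 0.949, edgeR). Nlrc4-201 gave 97.6% to 100% of it.

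Naip5 (ENSMUSG00000071203, chr13:100211739-100246323, minus strand), the flagellin sensor, was listed at 0 in all 6 libraries through its single annotated transcript. Its closely related paralogs may share reads with it, and how the counting split them is not stated. Naip2, which recognises a secretion-system rod protein, held 459, 649 and 122 rescaled counts in controls and 525, 517 and 694 with Ti. Naip1 held 15 to 35 per library, Naip3 4 to 32 and Naip6 at most 1. Naip2 thus had the highest count of the Naip genes in every library, and its log2 fold change was 0.59 ± 0.58 (SE).

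Nlrp1b (ENSMUSG00000070390, chr11:71153102-71230733, minus strand), the sensor cleaved by anthrax lethal factor, held 2, 3 and 0 rescaled counts in control replicates 1, 2 and 3, and 0, 1 and 55 in Ti replicates 1, 2 and 3. Only Ti replicate 3, at 1.14 CPM, was above the floor of 3 counts, and the gene was not tested. All of these counts came from Nlrp1b-202, while its other 4 annotated transcripts and the paralogs Nlrp1a and Nlrp1c-ps were at 0. Naip5 and Nlrp1b are known to vary between inbred mouse strains.

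Nek7 (ENSMUSG00000026393, chr1:138482875-138620141, minus strand) encodes a mitotic kinase that binds NLRP3 and is needed for its assembly. It measured 48.7, 52.0 and 52.9 CPM in control replicates 1, 2 and 3, and 42.6, 46.4 and 47.4 CPM in Ti replicates 1, 2 and 3. The highest Ti library was just below the lowest control. Means were 51.2 ± 2.22 and 45.5 ± 2.52 CPM (SD, n = 3 each), a log2 fold change of -0.17 ± 0.10 (SE) that did not pass the threshold (unadjusted p = 0.150, adjusted p = 0.848, edgeR quasi-likelihood test). Nek7-202, 79.8% to 89.1% of the gene, was likewise lower in each Ti library, at 44.6, 43.0 and 41.7 CPM in controls and 34.6, 39.3 and 37.6 CPM with Ti (log2 fold change -0.21 ± 0.14, SE). An antisense gene overlapping an exon, Gm28501, held a mean of 0.5 rescaled counts.

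Pycard (ENSMUSG00000030793, chr7:127989708-127993867, minus strand) was listed at 0 in all 6 libraries for both of its annotated transcripts, which allows at most 0.0498 to 0.0796 CPM per library for counting error. Gm45205, annotated on the opposite strand across Pycard exons, held 103 to 702 rescaled counts per library. Whether the counting used strand is not stated, so reads of the pair cannot be told apart. Whether assembled transcripts held reads of this locus was not tested.

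Casp1 (ENSMUSG00000025888, chr9:5298517-5307265, plus strand), counted through a single transcript, measured 47.1, 52.9 and 52.7 CPM in controls and 50.8, 63.2 and 65.0 CPM with Ti. Ti replicates 2 and 3 were above every control and Ti replicate 1 was within their range. As for Casp4 below, each Ti library exceeded the control of the same number. With the replicate number as a block the unadjusted p was 0.067 and the adjusted p 0.553 (edgeR). Means were 50.9 ± 3.32 and 59.7 ± 7.72 CPM (SD, n = 3 each), a log2 fold change of 0.23 ± 0.13 (SE, unadjusted p = 0.135, adjusted p = 0.834, edgeR quasi-likelihood test). An interval of 2 SE ran from -0.04 to 0.50.

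Casp4 (ENSMUSG00000033538, chr9:5308828-5336783, plus strand) lies 1562 bases downstream of Casp1 and encodes caspase-11, which binds bacterial lipopolysaccharide in the cytosol and cleaves gasdermin D. It measured 1.56, 3.91 and 2.73 CPM in control replicates 1, 2 and 3, and 2.83, 4.85 and 6.09 CPM in Ti replicates 1, 2 and 3. The groups overlapped through control replicate 2 and Ti replicate 1. Means were 2.74 ± 1.18 and 4.59 ± 1.65 CPM (SD, n = 3 each), a log2 fold change of 0.75 ± 0.43 (SE, unadjusted p = 0.134, adjusted p = 0.833, edgeR quasi-likelihood test). Each Ti library exceeded the control of the same number, and with the replicate number as a block the unadjusted p was 0.0348 and the adjusted p 0.506 (edgeR). The full-length form Casp4-201 gave 64.0% to 99.9% of the gene and measured 1.21, 4.05 and 1.70 CPM in controls and 2.00, 4.84 and 4.93 CPM with Ti.

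Gsdmd (ENSMUSG00000022575, chr15:75862327-75867408, plus strand) measured 72.2, 65.7 and 68.3 CPM in controls and 66.6, 66.0 and 79.4 CPM with Ti. The libraries overlapped and differed little. The log2 fold change was 0.04 ± 0.11 (SE, adjusted p = 0.987, edgeR quasi-likelihood test), and 2 SE on either side spanned -0.19 to 0.27. Gsdmd-201 made up 87.1% to 92.1% of the gene. Gsdme, a related pore-forming gasdermin, measured 5.03, 4.54 and 6.45 CPM in controls and 3.78, 2.68 and 2.43 CPM with Ti, below each control in each Ti library. Its log2 fold change of -0.85 ± 0.26 (SE) had an unadjusted p of 0.0168 and an adjusted p of 0.571 (edgeR).

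**Figure D3:**
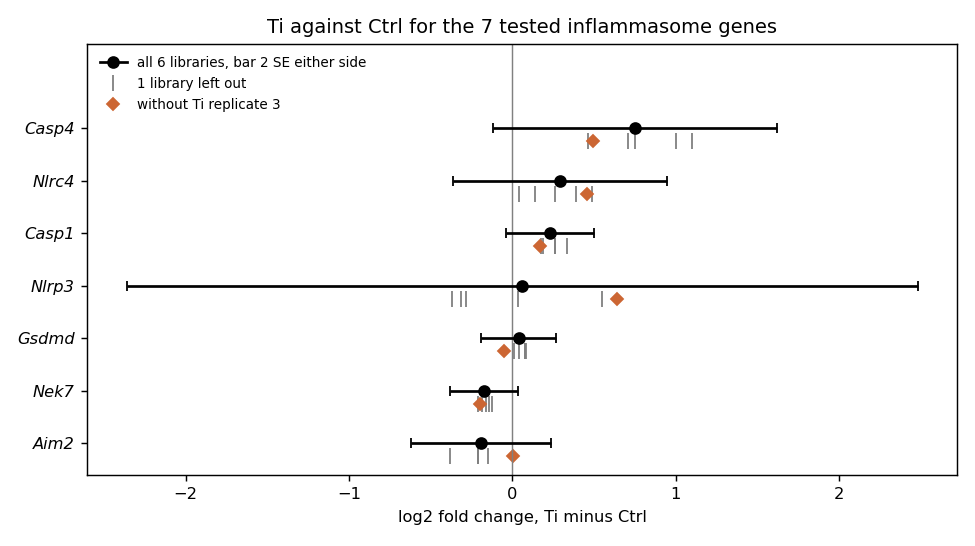
Log2 fold change of Ti against PBS for the 7 tested genes; circles are edgeR estimates on all 6 libraries with bars of 2 SE either way, ticks are estimates with 1 library left out, and diamonds are those without Ti replicate 3. The Nlrp3 interval ran from -2.36 to 2.48 and the Gsdmd interval from -0.19 to 0.27.

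Over the single transcripts, 18 of 39 were tested and none passed the adjusted threshold by edgeR (lowest adjusted p = 0.603), against 0.00721% of 41599 transcripts tested (3 transcripts, and 0 with the block). One, Aim2-202, had an unadjusted p under 0.05 (4.29% of all tested) and was the 1 called by DESeq2 (0.971% of all). The groups lay apart for 2 of the 18, or 11.1%, Aim2-202 higher and Nek7-202 lower, against 10.4% of all transcripts tested, 5.51% higher and 4.94% lower. On simulated data the edgeR transcript test recovered only 10.8% of 16-fold changes, so a transcript that was not called may still have changed.

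Levels of different genes were compared per exon length, as TPM computed from the rescaled values. On that scale Gsdmd was highest, at 57.8 ± 6.38 in controls and 59.5 ± 11.8 with Ti (SD, n = 3 each), and lay above Casp1, at 43.2 ± 4.83 and 50.5 ± 6.34, in 6 of 6 libraries. Aim2 averaged 24.0 over the 6 libraries, Nlrp3 20.1 and Nek7 13.2. The place of Nlrp3 was not settled, since Aim2 exceeded Nlrp3 in 3 of 6 libraries and Nlrp3 exceeded Nek7 in 4 of 6. Aim2 exceeded Nek7 in every library. Casp4 followed at 3.39, Nlrc4 at 1.28 and Nlrp1b at 0.0802, with Pycard and Naip5 at 0. The executor gasdermin D and caspase-1 were thus the most abundant per length, and the order of group means was the same in both groups.

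Ti replicate 3 held the highest or lowest value for 6 of the 8 genes with any count. The share of all genes with an extreme in this library was not computed, so the count is a description only. Ti replicate 3 was the highest library for Casp1, Casp4, Gsdmd and Nlrp1b and the lowest for Nlrp3 and Aim2. Ti replicate 1 was highest for Nlrp3, Nlrc4 and Aim2 and lowest for Nek7. For Nlrp1b it was tied lowest with control replicate 3, at a count of 0. Ti replicate 2 was neither highest nor lowest for any gene. The median log2 fold change of the 7 tested genes, 0.06 on all libraries, was 0.17 without Ti replicate 3, 0.26 without control replicate 3 and 0.0071 without control replicate 2.

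Of 57 other inflammasome pathway genes in 7 lists, 48 were tested and none passed the adjusted threshold in either direction by edgeR. Of the 48, 10 had an unadjusted p under 0.05 (edgeR), which 6.76% of all genes tested had. The lists were chosen with earlier results of these data known, so no conclusion is drawn from these shares. The genes named below had the smallest unadjusted p of their list, a choice that favours groups lying apart. Estimates were positive for 27 and negative for 21, with a median log2 fold change of 0.07. Among NLRP3 triggers and ion efflux genes 3 of 11 estimates were positive and 8 negative. The ATP-gated channel P2rx7 measured 33.9, 36.1 and 31.4 CPM in controls and 14.4, 18.1 and 24.0 CPM with Ti (log2 fold change -0.84 ± 0.21, SE, unadjusted p = 0.00683, adjusted p = 0.440, edgeR). Each of its Ti libraries lay below each control. The large-pore channel Panx1 gave -0.70 ± 0.29 and the kinase Mark4 -0.50 ± 0.30 (SE), both with overlapping groups. For both, each Ti library was below the control of the same number. Their unadjusted p was 0.017 each with the replicate number as a block (edgeR).

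In the interleukin-1 family list the estimate was large for Il1b, the main caspase-1 substrate, at 0.422, 0.0748 and 0 CPM in controls and 2.19, 2.44 and 13.6 CPM with Ti (log2 fold change 5.07 ± 1.36, SE, adjusted p = 0.472, edgeR). Il1a, a related cytokine processed mainly by calpain, gave 5.15 ± 1.18 (SE, adjusted p = 0.397, edgeR). For both, all 3 Ti libraries were above all 3 controls, but the levels were low and highest in Ti replicate 3, without which the estimates were 3.69 and 3.77. Il18, the other caspase-1 substrate, gave -0.68 ± 0.33 (SE), from 5.69 ± 2.34 CPM in controls to 3.55 ± 0.576 CPM with Ti (SD, n = 3 each). Its Ti libraries were all below its controls.

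All 5 cathepsins, lysosomal proteases released when lysosomes rupture, had positive estimates on all libraries, none past the adjusted threshold. The lowest, for Ctss, was 0.0016. Their median log2 fold change was 0.27, and it was 0.091 without control replicate 1 and 0.20 without Ti replicate 3. Without Ti replicate 3, Ctsb and Ctss turned negative, at -0.14 each, while Ctsd, Ctsl and Ctsz stayed positive. That fit kept control replicate 3, the highest control for Ctsb. Ctsb measured 811, 775 and 1348 CPM in controls and 942, 826 and 1622 CPM with Ti, replicates in order. Each Ti library was above its same-numbered control. The unadjusted p of Ctsb was 0.553 in the unpaired edgeR fit and 0.0458 in the blocked edgeR fit. For Ctss the blocked fit gave 0.932, and only Ti replicate 3 was above its same-numbered control. Ctsl gave 0.33 ± 0.09 (SE), with means of 220 ± 3.13 CPM in controls and 277 ± 18.5 CPM with Ti (SD, n = 3 each). Ctsz gave 0.27 ± 0.10, its Ti libraries also all above its controls, and Ctsd 0.31 ± 0.41 with overlapping groups (SE). Of the transcription factors and guanylate-binding or immunity-related GTPase partners, 7 of 8 estimates were positive with a median of 0.85. This median moved to 0.01 when Ti replicate 3 was left out, to 0.44 without control replicate 2 and to 1.13 without control replicate 3. With the replicate number as a block it was 0.69. Zbp1, a sensor of Z-form nucleic acids, gave 1.62 ± 0.58, or 0.70 without Ti replicate 3, and the guanylate-binding protein gene Gbp3 gave 1.35 ± 0.57 (SE). The exception was Irf1, a factor that drives GBP genes, at -0.80 ± 0.27 (SE), whose Ti libraries at 7.92, 8.17 and 9.09 CPM all lay below its controls. Among the other sensors 4 of 6 tested were positive (median 0.20, and -0.05 to 0.35 with single libraries left out, lowest without Ti replicate 3 and highest without Ti replicate 2). There Nlrp10 gave -0.53 ± 0.24, with each Ti library below each control, and Nod2, which senses bacterial muramyl dipeptide, 0.51 ± 0.32 (SE). Among other caspases and executors 2 of 8 were positive, and Casp8, an initiator caspase of apoptosis, gave 0.25 ± 0.17 (SE). Among inhibitors 4 of 7 were positive. The inhibitory receptor gene Cd300a gave -0.46 ± 0.19, with each Ti library below each control, the ubiquitin ligase gene March7 -0.22 ± 0.14, and Trim30a 0.78 ± 0.40 (SE), or 0.19 without Ti replicate 3.

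**Figure D4:**
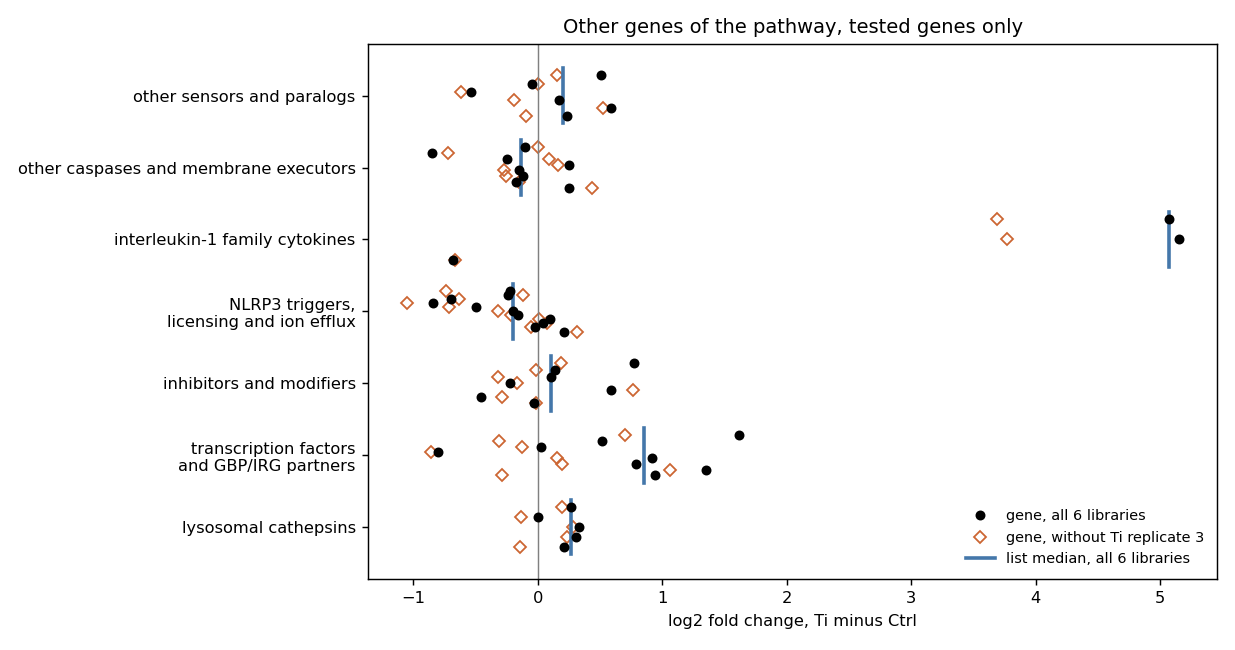
Log2 fold change of Ti against PBS for the 48 tested genes of 7 other pathway lists; circles are genes on all 6 libraries, open diamonds the same genes without Ti replicate 3, and bars the list medians on all 6. The median for transcription factors and GTPase partners was 0.85 on all 6 libraries and 0.01 without Ti replicate 3, and no plotted gene passed the adjusted threshold. With the replicate number as a block, which is not plotted, that median was 0.69.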

How the data were processed

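Total RNA from 6 RAW264.7 libraries (3 PBS, 3 Ti, grouped by their labels) was represented by the deposited files, each with estimated counts for 187351 transcripts. HISAT2, StringTie and the build mm9 are listed per the submitters' processing notes; the sources used here give no versions, counting tool or strand setting. The identifiers of 141862 rows match GENCODE vM21 (GRCm38) one for one, so names and coordinates are from there; 45489 assembled rows carry no gene and were not used.

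The deposited values rose with genomic span (slope 0.918 on log scales against the ratio of span to exon length), so each estimated count was multiplied by exon length over span, summed per gene and rounded. Rescaled counts are not reads, so floors and precision are approximate and cover counting error only. Genes (15376) and transcripts (41599) passing filterByExpr were tested with edgeR 4.0.16 in R 4.3.3 (quasi-likelihood, TMM, Benjamini-Hochberg at 0.05); SE is the log2 fold change over the square root of F. DESeq2 1.42.0, other scalings and filters, protein-coding transcripts only, a replicate block, no rescaling and leaving out each library were alternatives. The tests were checked on 2 simulated data sets. The gene test recovered 5% of 2-fold, 52.9% of 4-fold and 93.3% of 16-fold changes. The transcript test recovered 0%, 0.714% and 10.8% of changes of these sizes. On average 9 of 105.5 gene calls and 0.5 of 7.5 transcript calls were false. A gene or transcript that was not called may therefore still have changed. Tables and plots were made with pandas 2.3.3 and matplotlib 3.10.9 under Python 3.11.15.

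Named were all 10 genes, their transcripts with a mean of at least 1 CPM in a group, the 5 genes most like Nlrp3, and up to 3 genes per list with the smallest unadjusted p; Naip, Nlrp1 and antisense neighbours were added as possible sharers of reads. The members and lists were chosen with earlier results of these data known. All 6 libraries differed beyond sampling noise and were kept. Same-numbered libraries deviated together across genes (correlations 0.115, 0.147 and 0.272, against -0.165 to 0.0330 for other pairs), all over the 0.1 required, and so met the rule for pairing, which the labels do not state. The main fits are unpaired, and the replicate number enters only as the block alternative. The results of 1 further marker list and of 1 gene that the rule names are not reported here.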

Additional observations from a re-analysis of the deposited data

How the results depend on the processing

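No inflammasome gene passed the threshold under any of the 14 alternatives, and of their transcripts only Aim2-202 did (1 transcript, DESeq2). Over all genes the count called was 4 by edgeR, 292 by DESeq2, 2 for protein-coding transcripts only, 1 without transcripts under 3 counts throughout one group and at least 50 throughout the other, 0 with the replicate block, and 1 to 13 with single libraries left out. Over all transcripts it was 3, against 404 by DESeq2, 9 without rescaling, 0 with DESeq2's size factors, a mean of at least 50, no filter or the replicate block, and 0 to 1 with single libraries left out. The cause was not tested. The replicate block turned the log2 fold change of Nlrp3 to -0.33, of Nlrp3-201 to -0.40 and of Gsdmd-206 to 0.039, and changed no call of an inflammasome gene. Leaving out single libraries, the log2 fold change changed sign for Nlrp3 (-0.37 to 0.64), Nlrp3-201 (-0.36 to 0.66), Nlrp3-202 (-0.62 to 0.34), Gsdmd (-0.049 to 0.086), Gsdmd-201 (-0.041 to 0.059), Gsdmd-202 (-0.52 to 0.72), Gsdmd-204 (-0.42 to 0.14), Gsdmd-206 (-0.42 to 0.35), Aim2 (-0.38 to 0.0015), Aim2-204 (-0.20 to 0.093) and Casp4-202 (-0.017 to 1.61). Casp1, Casp4, Nek7 and Nlrc4 kept their direction under every alternative run. Transcripts with under about 1 CPM, and the genes at 0, are limited by depth.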
